A study of Mus musculus with 27 samples.

Results

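The comparison described here is that of non-stripped aorta from TKO mice treated with an antibody against interleukin 9 (IL-9) and from TKO mice treated with control IgG. Its members were the 5 libraries whose labels give TKO, non-stripped aorta and either IgG (3 libraries, replicates 1 to 3) or IL9mAb (2 libraries, replicates 1 and 2), out of 27 samples in the series, and all genes of their count table were used. Both groups carry the label TKO and the strain background C57BL/6, and both received angiotensin II (Ang II) for 28 days together with the antibody, so neither the genotype nor the hormone differs between them. The study as a whole asks about KLF10 and IL-9 in scarring around the aorta, and besides these libraries it holds stripped aorta, isolated aortic fibroblasts, single cells, and non-stripped aorta of TKO and Cre mice without antibody (3 libraries each). The labels do not spell out TKO or Cre, the promoter that drives Cre, the antibody clone or dose, the ages and sexes of the mice, or the stretch of aorta that was taken.

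IL-9 is a cytokine made chiefly by helper T cells and innate lymphoid cells, and its receptor pairs the IL-9 receptor chain with the common gamma chain to activate JAK and STAT proteins. KLF10 is a zinc finger transcription factor that TGF-beta induces. Ang II constricts vessels and, when infused for weeks, thickens the collagen-rich adventitia, the outer coat that holds fibroblasts, fat, small vessels, immune cells and the fibres of sympathetic nerves. The cell bodies of those nerves lie in ganglia beside the aorta, close to the adrenal glands in the abdomen, so a non-stripped aorta can carry tissue of the vessel wall and of its surroundings.

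The 5 libraries held 17179257 to 22745977 counts, of which 19.6% to 25.0% fell on mitochondrially encoded genes. Across all 42375 symbols, tested or not, rank correlations (Spearman, as a description) were 0.942 to 0.950 within the groups and 0.931 to 0.935 between them. Xist, the RNA that coats the inactive X chromosome, was read at 8.37 to 14.9 CPM (counts scaled to the size of the library) in all 5 libraries, and the Y-linked gene Ddx3y at 61.0 to 84.0 CPM in the same libraries. In the 6 non-stripped libraries without antibody Xist reached at most 0.116 CPM. Both genes were thus read in each library of both antibody groups, and their part in the results was not tested. Some libraries stood apart. Anti-IL-9 replicate 1 carried genes of the adrenal cortex and of lymphocytes, IgG replicate 2 had the highest collagen levels, and IgG replicate 3 had the highest mesothelial and heart muscle levels. The markers of the labelled tissue were present in every library, with summed levels of 1162 to 2594 CPM for 18 smooth muscle genes, 779 to 1921 CPM for 15 endothelial genes, 1416 to 4185 CPM for 16 fibroblast genes and 13629.5 to 30770.6 CPM for 18 white fat genes.

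A large share of the transcriptome differed between the antibody groups. Of 16463 genes tested with edgeR's quasi-likelihood test, 3462 rose (21.0%) and 1815 fell (11.0%) at an adjusted p under 0.05, while the median over all genes tested was −0.01 on the log2 scale. The larger changes were mostly increases. At least 2-fold higher levels were found for 2318 called genes and at least 2-fold lower levels for 647, and at 8-fold the counts were 425 and 26. Among called genes with a mean of at least 1 CPM and groups that did not overlap, Nr1h5, a nuclear receptor gene, had the largest log2 fold change, with 3 counts in the IgG libraries and 149 in the anti-IL-9 libraries, a ratio of 64.7 (95% interval 21.7 to 317, counting error only). The groups did not overlap for 5270 of the 5277 called genes, nor for 59.9% of all genes tested. With 2 libraries in the anti-IL-9 group the p-values measure the spread between these libraries. In whole tissue, fewer cells of a type and less RNA per cell cannot be told apart. The plot of list levels shows how the groups of genes described next were distributed over the libraries. These lists and their members were chosen with earlier results of these data known. The share of a list that was called is therefore a description and not a test.

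**Figure D1:**
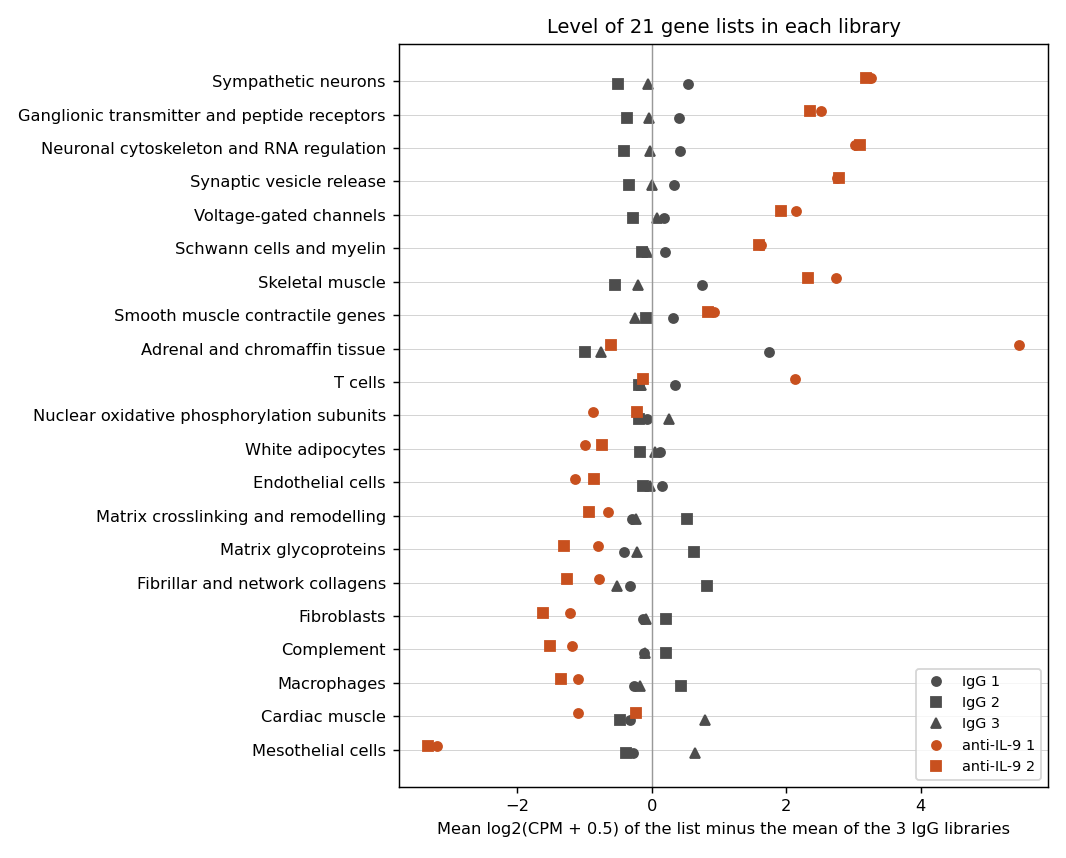
Mean log2(CPM + 0.5) of the genes in 21 lists (rows), each library drawn as its difference from the mean of the 3 IgG libraries; grey symbols are IgG libraries and orange symbols anti-IL-9 libraries. Both anti-IL-9 libraries lie to the right of all IgG libraries for the neural lists and to the left for fibroblast, endothelial and mesothelial genes, while adrenal and T cell genes are high in anti-IL-9 replicate 1 and not in replicate 2, and adrenal genes are also raised in IgG replicate 1.

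Klf10 (GRCm38 chromosome 15, 38291463 to 38300706, minus strand) was read at 39.7, 47.3 and 28.4 CPM in the IgG libraries and at 23.4 and 20.8 CPM in the anti-IL-9 libraries. All anti-IL-9 values lay below all IgG values, and Klf10 fell by 0.80 ± 0.22 (SE) on the log2 scale (adjusted p = 0.0296). The adjusted p rose to 0.064 without IgG replicate 1, to 0.0847 without anti-IL-9 replicate 1, to 0.117 without anti-IL-9 replicate 2 and to 0.504 in a joint fit with the libraries without antibody. Klf10 RNA was thus present in every library of the TKO label, and since the labels name neither the cells that lack the gene nor the deleted part, it checks the label only in part. Il9 itself (chromosome 13, 56479277 to 56482246) had 0 counts in all 5 libraries, which allows at most 0.120 to 0.188 CPM at these depths. Il9r, the receptor chain specific to IL-9, was read at 0.689, 0.417 and 0.438 CPM with IgG and at 1.04 and 0.0546 CPM with anti-IL-9. The groups overlapped (0.17 ± 0.85, adjusted p = 0.896), and the direction turned to −3.10 (adjusted p = 0.0904) without anti-IL-9 replicate 1. Il2rg, the common gamma chain (named after its values were seen), was read at 8.02 to 9.81 CPM with IgG and at 9.52 and 4.04 CPM with anti-IL-9. It did not pass the test (−0.40 ± 0.35, adjusted p = 0.405) and turned on the choice of library, at −1.18 (adjusted p = 0.0237) without anti-IL-9 replicate 1 and 0.06 without replicate 2.

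Among 19 tested genes of IL-9 receptor, JAK and STAT signalling, 2 rose and 5 fell, against 21.0% and 11.0% of all genes tested, with a median of −0.29. Jak3, the kinase bound to the common gamma chain, fell from 79.0 to 111 CPM with IgG to 39.0 and 51.5 CPM with IL-9 antibody (−1.07 ± 0.19, adjusted p = 0.00609). Stat5a, a transcription factor downstream of it, fell from 38.5 to 42.9 CPM to 25.4 and 24.6 CPM (−0.68 ± 0.11, adjusted p = 0.00463). Irs2, an adaptor of insulin and cytokine receptors, rose from 34.5 to 36.6 CPM to 59.4 and 73.4 CPM (0.91 ± 0.13, adjusted p = 0.00192), a call that the joint fit did not keep (adjusted p = 0.161). Anti-IL-9 and IgG values did not overlap for any of these 3 genes. The number that rose was 1 or 2 in the alternative settings, and the number that fell was 3 without IgG replicate 1, 2 without IgG replicate 3 and 2 leaving out anti-IL-9 replicate 2. Of the other Kruppel-like factors, Klf7, which neurons express, rose from 16.1 to 21.9 CPM to 48.3 and 57.3 CPM (1.53 ± 0.17, adjusted p = 0.000644). In the whole family 3 of 13 tested members rose and 5 fell. The 5 became 1 without IgG replicate 1, 3 without IgG replicate 3, 3 without anti-IL-9 replicate 2 and none without anti-IL-9 replicate 1, and the 3 became 1 without IgG replicate 3 or anti-IL-9 replicate 2.

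Of the type 2 immune genes, 2 of 15 tested rose and 2 fell, against 21.0% and 11.0% of all genes tested, so that neither count was far above the share of all genes. The 2 that fell became 4 in DESeq2 and in the joint fit and 7 with no filter on low counts. Gata3, which directs type 2 helper T cells and is also a sympathetic neuron factor, rose 14.2-fold and is given with the neurons. Il4, the type 2 cytokine, rose from 0.926 to 1.22 CPM to 7.96 and 6.83 CPM (2.76 ± 0.26, adjusted p = 0.000351) and was at a similar level in both anti-IL-9 libraries. Il33, the epithelial and stromal alarmin, fell from 23.1, 68.2 and 34.8 CPM to 15.0 and 11.7 CPM (−1.65 ± 0.44, adjusted p = 0.0283), and Il1rl1, its receptor, fell from 3.18 to 3.61 CPM to 1.96 and 1.47 CPM (−0.97 ± 0.28, adjusted p = 0.0379). Neither was called without IgG replicate 3 (adjusted p = 0.0548 for Il33 and 0.082 for Il1rl1), without anti-IL-9 replicate 1 (0.0946 and 0.0621) or without anti-IL-9 replicate 2 (0.126 and 0.127). Il1rl1 was also lost without IgG replicate 1 (0.0708) or 2 (0.0788).

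Genes of sympathetic neurons rose together. Of 20 tested members of a list of transmitter synthesis and identity genes, 18 rose, with a median of 3.50 on the log2 scale (11.3-fold), against 21.0% of all genes tested and the median of −0.01 over them. The summed level of the list was 844, 369 and 498 CPM in the IgG libraries and 6487 and 6432 CPM in the anti-IL-9 libraries. Th, the rate-limiting enzyme of catecholamine synthesis, was read at 105, 40.6 and 57.5 CPM with IgG and at 783 and 732 CPM with anti-IL-9. Dbh, which turns dopamine into noradrenaline, was read at 172, 74.6 and 94.8 CPM with IgG and at 1053 and 1109 CPM with anti-IL-9. Both were lowest in IgG replicate 2 and highest, among the IgG libraries, in replicate 1, and neither overlapped between groups (Th 3.49 ± 0.38, adjusted p = 0.00061; Dbh 3.25 ± 0.35, adjusted p = 0.000581). These 2 genes were named after their values were seen. Slc6a2, the noradrenaline transporter, stood at 183, 99.4 and 129.6 CPM against 1163 and 1131 CPM (3.06 ± 0.26, adjusted p = 0.000259).

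The transcription factors and peptides of these neurons followed the enzymes. Hand1, a basic helix-loop-helix factor of the sympathetic lineage, was at 7.31, 3.06 and 3.38 CPM with IgG and at 91.6 and 96.9 CPM with IL-9 antibody (4.36 ± 0.34, adjusted p = 0.000196). Gata3 was at 3.02, 1.53 and 1.88 CPM and at 26.2 and 34.5 CPM (3.82 ± 0.28, adjusted p = 0.000181). For both factors the lowest anti-IL-9 library lay above the highest IgG library. Ret, the receptor of GDNF family growth factors, rose from 17.2 to 24.5 CPM to 148 and 152 CPM (2.84 ± 0.16, adjusted p = 0.000172). Npy, the peptide that sympathetic fibres release with noradrenaline, was at 51.7, 8.25 and 13.5 CPM with IgG, against 681 and 760.2 CPM (4.88 ± 0.73, adjusted p = 0.00276). Drd2, a dopamine receptor, rose from 0.741 to 4.72 CPM to 62.3 and 58.8 CPM (4.80 ± 0.60, adjusted p = 0.00122). Cartpt, a neuropeptide gene, did not pass (0.03, adjusted p = 0.984) and was at 1.25 CPM or less in every library. The count of 18 was the same under each of the 14 alternative settings tried.

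**Figure D2:**
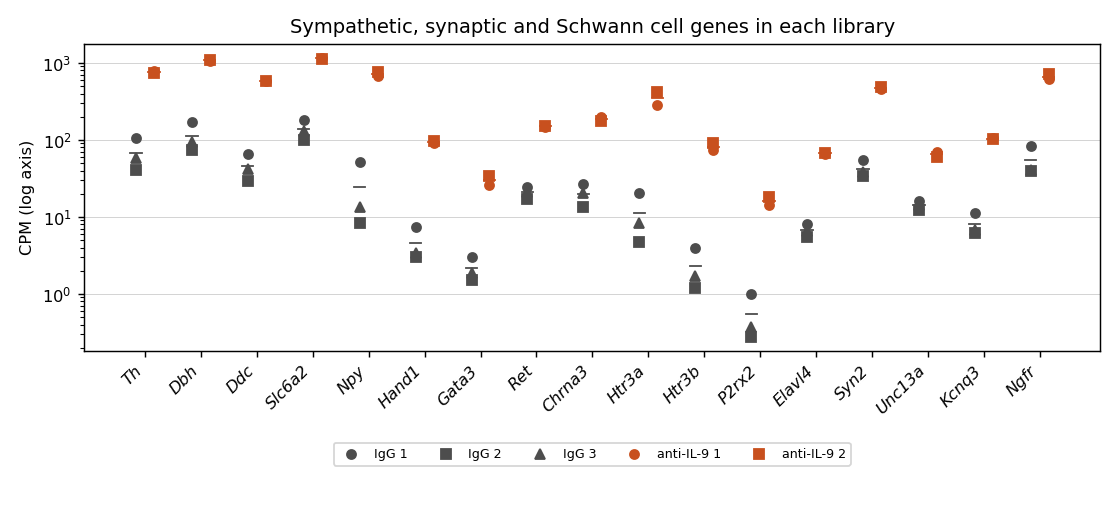
Level of 17 neural and Schwann cell genes in CPM on a log axis, one symbol per library, with a bar at each group's mean (IgG grey, anti-IL-9 orange). The anti-IL-9 libraries sit close together and above all IgG libraries for every gene drawn, and among the IgG libraries replicate 1 is the highest throughout.

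Receptors through which ganglion neurons receive their input rose as well, in 14 of 18 tested members (median 2.89), against 21.0% of all genes tested. Htr3b and Htr3a, the subunits of the serotonin-gated ion channel, lie next to each other on chromosome 9 (48935008 to 48964990 and 48899213 to 48911099). Htr3b was at 3.98, 1.20 and 1.69 CPM with IgG and at 73.1 and 91.0 CPM with anti-IL-9, which was 35.8-fold (5.16 ± 0.41, adjusted p = 0.000201). Htr3a was at 20.8, 4.73 and 8.39 CPM and at 288 and 418 CPM (4.97 ± 0.57, adjusted p = 0.00083). P2rx2, an ATP-gated channel, went from 1.01, 0.278 and 0.376 CPM to 14.4 and 18.3 CPM (4.87 ± 0.44, adjusted p = 0.000294). These 3 channel genes were again highest with IgG in replicate 1, and both anti-IL-9 libraries lay far above that value. Chrna3, the alpha subunit of the ganglionic nicotinic receptor, stood at 26.8, 13.3 and 20.2 CPM and at 199.6 and 177 CPM (3.23 ± 0.27, adjusted p = 0.000238). Chrnb2, another nicotinic subunit, rose less, from 9.14 to 10.8 CPM to 28.8 and 32.1 CPM (1.65 ± 0.14, adjusted p = 0.000232). Not all receptors rose: P2rx3, the ATP-gated channel of sensory neurons, was at 0.649 to 1.27 CPM and at 0.84 and 0.764 CPM (−0.24, adjusted p = 0.695), and the GABA receptor subunit Gabra3 was at 11.2 to 13.3 CPM and at 11.5 and 6.72 CPM (−0.39, adjusted p = 0.266).

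The general machinery of neurons moved with them. All 20 tested genes of the neuronal cytoskeleton and its RNA-binding proteins rose (median 3.34), against 21.0% of all genes tested. So did 21 of 22 genes of synaptic vesicle release (median 3.03) and 27 of 28 voltage-gated channel genes (median 2.25). Elavl4, an RNA-binding protein of neurons, was at 8.22, 5.56 and 6.51 CPM with IgG and at 66.6 and 68.1 CPM with IL-9 antibody (3.32 ± 0.17, adjusted p = 0.000172). Syn2, a protein that tethers synaptic vesicles, was at 55.2, 33.7 and 38.0 CPM and at 453 and 492 CPM (3.48 ± 0.23, adjusted p = 0.000174). Kcnq3, a subunit of the M-type potassium channel that restrains sympathetic firing, was at 11.1, 6.25 and 6.76 CPM and at 105 and 104 CPM (3.70 ± 0.24, adjusted p = 0.000174). In each case the anti-IL-9 libraries agreed closely and lay far above the IgG libraries. The genes with the smallest p of the whole comparison included Hcn3, a pacemaker channel (3.57 ± 0.16), Doc2b, a calcium sensor of secretion (3.11 ± 0.14), Tmem35, a nicotinic receptor chaperone (3.36 ± 0.16), Nrcam, a neuronal adhesion protein (2.78 ± 0.13), and Prune2 (2.97 ± 0.12), each with an adjusted p of 0.000172. Without anti-IL-9 replicate 1 the numbers called higher in these 3 lists were 19, 21 and 20.

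Glia of peripheral nerves rose with a smaller median. Of 20 tested Schwann cell and myelin genes 14 rose (median 1.67). Over all genes tested 21.0% were called higher and 11.0% lower. Ngfr, the low-affinity neurotrophin receptor that sympathetic neurons share with glia, was at 82.9, 39.1 and 40.8 CPM with IgG and at 615 and 711 CPM with IL-9 antibody (3.61 ± 0.35, adjusted p = 0.000378). S100b, a glial marker that fat cells also express, was at 43.0 to 59.1 CPM and at 40.7 and 73.4 CPM and did not pass (0.14, adjusted p = 0.706). A list of cholinergic and sensory neuron genes did not follow the sympathetic list. Of 11 tested members only Pvalb rose, a calcium buffer shared with fast skeletal muscle (2.98 ± 0.43, adjusted p = 0.00223), and 3 fell: Trpv1, the capsaicin receptor (−1.72 ± 0.30, adjusted p = 0.00503), and the neurotrophin receptors Ntrk2 (−0.62 ± 0.13, adjusted p = 0.012) and Ntrk3 (−0.67 ± 0.19, adjusted p = 0.0319). Ntrk2 was not called without anti-IL-9 replicate 1 (adjusted p = 0.0548), nor Ntrk3 without IgG replicate 1 (0.0814), IgG replicate 3 (0.0916), anti-IL-9 replicate 1 (0.0954) or anti-IL-9 replicate 2 (0.106). The median of the list was 0.40, and it was −0.73 without anti-IL-9 replicate 1 and −0.09 without IgG replicate 3.

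Among the called members of the neural lists that the promoter table held, those of the 4 with the smallest adjusted p are printed because these genes rose together. They are the 250 bases before the RefSeq start (build GRCm38.p6, the first start listed, 5′ to 3′ on the gene's strand). The table held 76 of the 115 neural genes that rose. Capitals mark matches on either strand to CACCC, a box that Kruppel-like factors bind. TTCNNNGAA (the STAT site), TGACGTCA (the cyclic AMP response element) and TATAAA (the TATA box) were searched in the same way, and no match overlapped another.
Elavl4, chromosome 4, 110351912 to 110352161, minus strand: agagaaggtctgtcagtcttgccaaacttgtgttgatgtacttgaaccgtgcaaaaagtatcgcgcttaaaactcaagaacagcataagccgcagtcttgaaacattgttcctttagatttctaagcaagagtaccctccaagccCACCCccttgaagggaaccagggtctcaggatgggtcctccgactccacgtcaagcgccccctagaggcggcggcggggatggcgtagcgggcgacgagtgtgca
Syn2, chromosome 6, 115134652 to 115134901, plus strand: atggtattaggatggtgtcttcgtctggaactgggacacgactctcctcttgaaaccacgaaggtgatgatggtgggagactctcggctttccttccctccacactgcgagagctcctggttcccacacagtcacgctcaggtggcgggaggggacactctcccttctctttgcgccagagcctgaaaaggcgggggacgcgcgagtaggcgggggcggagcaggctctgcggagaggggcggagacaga
Unc13a, chromosome 8, 71671758 to 71672007, minus strand: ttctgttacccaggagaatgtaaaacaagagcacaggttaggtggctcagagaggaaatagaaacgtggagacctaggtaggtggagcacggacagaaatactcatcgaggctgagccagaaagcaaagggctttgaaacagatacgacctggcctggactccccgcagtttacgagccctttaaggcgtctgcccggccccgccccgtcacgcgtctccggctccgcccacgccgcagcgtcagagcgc
Gal, chromosome 19, 3414545 to 3414794, minus strand: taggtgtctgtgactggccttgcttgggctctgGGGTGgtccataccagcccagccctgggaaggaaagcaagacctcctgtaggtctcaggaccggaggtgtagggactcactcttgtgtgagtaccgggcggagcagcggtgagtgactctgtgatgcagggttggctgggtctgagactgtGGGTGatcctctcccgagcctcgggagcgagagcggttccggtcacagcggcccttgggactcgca
Elavl4 and Syn2 were described above. Unc13a primes synaptic vesicles and rose from 12.4 to 16.2 CPM to 69.0 and 60.7 CPM (2.19 ± 0.15, adjusted p = 0.000177), and Gal, the neuropeptide galanin, rose from 3.66 to 5.35 CPM to 38.1 and 30.8 CPM (2.87 ± 0.20, adjusted p = 0.000177). CACCC occurred at −105 to −101 in Elavl4 and, read on the other strand, at −217 to −213 and −66 to −62 in Gal. Of 27025 promoters of this length, 51.3% held CACCC, 7.18% TTCNNNGAA, 1.62% TGACGTCA and 12.97% TATAAA. Among the 76 matched neural genes that rose the counts were 51, 5, 6 and 6. The STAT and cyclic AMP letters read the same on both strands.

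Hox genes record position along the body axis, and those called here differed in direction by their number and by their cluster. These groups were chosen after their values were seen. Of 6 tested genes of paralogous groups 9 to 13, 4 rose, against 21.0% of all genes tested. Hoxc10 (chromosome 15, 102966796 to 102971893) was read at 0.212, 0.0463 and 0 CPM with IgG and at 4.88 and 4.53 CPM with anti-IL-9. Only 5 counts lay behind the IgG values against 205, a ratio of 53.4 (95% interval 22.5 to 166, counting error only; adjusted p = 0.000755). Hoxc9, its neighbour (102976439 to 102985099), was at 1.54, 0.788 and 0.752 CPM and at 13.6 and 15.1 CPM (3.80 ± 0.32, adjusted p = 0.000243). Hoxa10 rose from 0.0926 to 0.424 CPM to 1.80 and 1.97 CPM (3.10 ± 0.57, adjusted p = 0.00652). Hoxa9 rose from 1.5 to 2.44 CPM to 3.40 and 4.48 CPM (1.10 ± 0.33, adjusted p = 0.0404), a call lost without IgG replicates 2 (adjusted p = 0.101) or 3 (0.127), without either anti-IL-9 library (0.074 and 0.161) and with upper-quartile scaling (0.0571). In groups 5 to 8, 2 of 11 tested genes rose and 2 fell, against 21.0% and 11.0% of all genes tested. Of 10 tested genes of groups 1 to 4, 1 rose and 3 fell. The highest value in groups 1 to 4, 2.215, belonged to a member that was not called. By cluster, and among the called genes only, Hoxc4, Hoxc6, Hoxc8, Hoxc9 and Hoxc10 lay above 0 under every setting. Of the other called genes Hoxa2, Hoxa3, Hoxa4, Hoxa7 and Hoxb5 lay below 0, and Hoxa9 and Hoxa10 above 0. Hoxa4 fell from 5.04 to 7.27 CPM to 2.04 and 2.78 CPM (−1.39 ± 0.28, adjusted p = 0.0101; 0.0554 without anti-IL-9 replicate 1) and Hoxa3 from 8.21 to 10.2 CPM to 5.16 and 4.31 CPM (−0.92 ± 0.21, adjusted p = 0.0143; 0.055 without anti-IL-9 replicate 2), while Hoxc4 rose (0.94 ± 0.13, adjusted p = 0.00205).

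**Figure D3:**
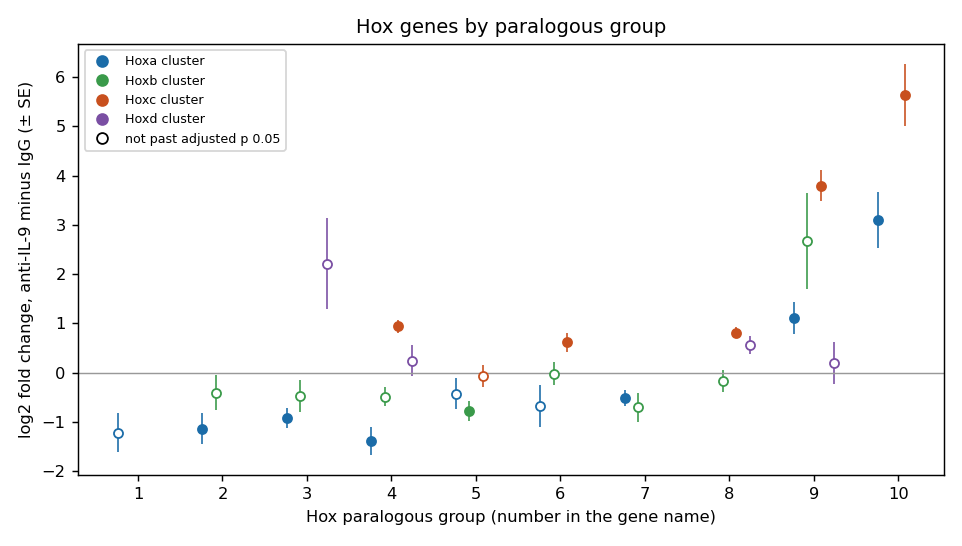
Log2 fold change (anti-IL-9 minus IgG, bars are the standard error) of 27 tested Hox genes against the number in the gene name, coloured by cluster; filled points passed an adjusted p of 0.05. The points past 3 are Hoxc9, Hoxc10 and Hoxa10, and the filled Hoxa points of groups 2 to 4 lie between −1.39 and −0.92.

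Markers of neighbouring tissues moved with the antibody groups to different extents, and their part in the neural and other results was not tested. Of 9 tested adrenal genes 2 were called higher, a share near the 21.0% of all genes tested. Both were high in anti-IL-9 replicate 1 only. Star, the cholesterol carrier of steroid synthesis, was at 20.8, 7.92 and 10.5 CPM with IgG and at 437 and 7.48 CPM with anti-IL-9. Akr1b7, an aldose reductase of the adrenal cortex, was at 2.92, 0 and 0.125 CPM and at 156 and 0.437 CPM. The summed level of the 10 adrenal genes was 69.2, 10.3 and 14.2 CPM with IgG and 1303 and 11.4 CPM with anti-IL-9, and Akr1b7, Cyp11b1, Cyp11b2 and Hsd3b1 had 0 counts in IgG replicate 2. The calls of Star (4.09 ± 1.28, adjusted p = 0.0479) and Akr1b7 (6.26 ± 1.91, adjusted p = 0.0441) turned to −0.82 and −1.22 without anti-IL-9 replicate 1, and both were also lost without IgG replicate 2 (adjusted p = 0.0989 and 0.085) or 3 (0.151 and 0.145), and Star without IgG replicate 1 (0.0739). Neither was called in limma-voom (0.345 and 0.402) or with the robust quasi-likelihood fit (0.135 and 0.138), nor Akr1b7 in DESeq2 (0.107). The sympathetic list had 18 calls without anti-IL-9 replicate 1, and a summed level of 6432 CPM in anti-IL-9 replicate 2, where the adrenal genes stood at 11.4 CPM. Adrenal genes in IgG replicate 1 were above those of IgG replicates 2 and 3, as were the sympathetic genes. IgG replicate 1 was the highest IgG library for 349 of the 425 genes that rose at least 8-fold, against 31.4% of all genes tested.

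Lymphocyte genes followed the same library. The 20 T cell genes summed to 13.02 to 21.4 CPM with IgG and to 107 and 14.3 CPM with anti-IL-9, and the called members Lck, a T cell kinase (3.01 ± 0.89, adjusted p = 0.0393), and Trbc2, a T cell receptor constant region (3.21 ± 0.99, adjusted p = 0.0468), were at 0.95 (adjusted p = 0.462) and −0.00011 (adjusted p = 1) without anti-IL-9 replicate 1. Both were lost without IgG replicate 2 (0.0705 and 0.0986) or 3 (0.124 and 0.131) too, and Trbc2 without IgG replicate 1 (0.0803). Neither was called in limma-voom (0.0947 and 0.225), nor Lck in DESeq2 (0.0511), nor Trbc2 with upper-quartile scaling (0.0508) or the robust fit (0.0579). Of 16 tested T cell genes 2 were called higher, a share not above the 21.0% of all genes tested. That number was 6 in DESeq2, 8 in the joint fit and 13 with no filter on low counts. Pax5, the B cell factor, rose from 0.649 to 1.64 CPM to 31.8 and 9.61 CPM (4.25 ± 0.57, adjusted p = 0.00172), with both anti-IL-9 libraries above the IgG range. Cr2, the complement receptor of B cells and follicular dendritic cells, was at 0 to 0.318 CPM and at 11.0 and 1.20 CPM (4.90 ± 1.11, adjusted p = 0.0155), and lost its call without IgG replicate 3 (adjusted p = 0.0555) or anti-IL-9 replicate 1 (2.53, adjusted p = 0.158) and in limma-voom (0.0712). Immunoglobulin genes were highest in IgG replicate 1 and did not pass, with Igkc, the kappa light chain, at 201, 14.9 and 56.1 CPM and at 59.4 and 26.4 CPM (−1.07 ± 0.94, adjusted p = 0.417).

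Skeletal muscle genes rose in 14 of 17 tested members (median 2.72), against 21.0% of all genes tested, at low levels. Their summed level was 126, 68.6 and 105 CPM with IgG and 408 and 334 CPM with anti-IL-9. Myh1, a fast myosin heavy chain, was at 1.91, 0.417 and 1.13 CPM and at 40.4 and 15.5 CPM (4.62 ± 0.58, adjusted p = 0.00125). The count was 9 without anti-IL-9 replicate 1. Heart muscle genes ran the other way and were highest in IgG replicate 3. Myh6, the atrial myosin heavy chain, was at 79.2, 66.2 and 230.4 CPM and at 29.0 and 38.8 CPM (−1.88 ± 0.55, adjusted p = 0.0392). Of 12 tested heart genes 4 fell and 2 rose, against 11.0% and 21.0% of all genes tested. Myh6 was not called without anti-IL-9 replicate 1 (adjusted p = 0.181) or 2 (0.105). Without anti-IL-9 replicate 1 no heart gene was called lower, without replicate 2 there were 2, and without IgG replicate 2 there were 7. The number was 2 in limma-voom, 7 in the joint fit and 8 with no filter on low counts, and Myh6 was not called with the robust fit (0.0514).

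The contractile genes of smooth muscle were higher with anti-IL-9. Of 18 tested members 13 rose, against 21.0% of all genes tested, with a median of 0.96 (1.95-fold). Acta2, smooth muscle actin, was at 315, 226 and 189 CPM with IgG and at 639 and 624 CPM with IL-9 antibody (1.38 ± 0.22, adjusted p = 0.00397). Cnn1, calponin, was at 39.9, 23.8 and 18.4 CPM and at 89.7 and 102 CPM (1.81 ± 0.29, adjusted p = 0.00387). Tagln, an actin-binding protein, was at 75.5, 62.1 and 50.4 CPM and at 151 and 145 CPM (1.24 ± 0.18, adjusted p = 0.00214). IgG replicate 1 was again the highest of its group for each of these genes, and the groups did not overlap. Cald1, caldesmon, was at 129 to 176 CPM and at 156 and 129 CPM (−0.15, adjusted p = 0.539). The count of 13 was 8 without IgG replicate 2, 7 without IgG replicate 3 and 5 leaving out anti-IL-9 replicate 1, and 8 with upper-quartile scaling, while the median stayed between 0.84 and 1.24.

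Vasoactive genes changed in both directions, 5 of 22 tested rising and 9 falling, against 21.0% and 11.0% of all genes tested, so that the share rising was near that of all genes. Agtr1a, the main receptor of Ang II, rose from 18.8, 12.1 and 10.9 CPM to 92.6 and 59.0 CPM (2.44 ± 0.28, adjusted p = 0.000774). The soluble guanylate cyclase subunits Gucy1a3 (2.13 ± 0.22, adjusted p = 0.00048) and Gucy1b3 (1.83 ± 0.19, adjusted p = 0.000534), which sense nitric oxide, rose, as did Adra2a, the alpha 2A adrenergic receptor (3.02 ± 0.33, adjusted p = 0.000679). Ece1, an enzyme that activates endothelin, fell from 114 to 126 CPM to 70.8 and 73.9 CPM (−0.75 ± 0.12, adjusted p = 0.0034), and Ednrb, an endothelin receptor, fell from 40.7 to 43.2 CPM to 25.8 CPM in both anti-IL-9 libraries (−0.71 ± 0.11, adjusted p = 0.00287). Of 20 immediate early and dissociation stress genes 5 rose, a share near the 21.0% of all genes tested, among them Nr4a1, an orphan nuclear receptor induced by activity (56.7 to 76.5 CPM against 186 and 172 CPM; 1.45 ± 0.15, adjusted p = 0.00057). That count was 3 without IgG replicate 1, IgG replicate 3 or anti-IL-9 replicate 2 and in the joint fit, and 11 with no filter on low counts.

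Genes of the fibrous matrix, the outcome named in the study's title, had mostly lower levels with anti-IL-9. Of 20 tested collagen genes 8 fell and 2 rose, with a median of −1.51 on the log2 scale (2.86-fold lower), against 11.0% of all genes called lower. Col1a1, the main fibrillar collagen of scars, was at 1294, 3187 and 657 CPM with IgG and at 430.5 and 329.9 CPM with anti-IL-9. Col3a1, its partner in vessel walls, was at 1539, 3802 and 1172 CPM and at 508 and 281 CPM. Both genes, named after their values were seen, were far higher in IgG replicate 2 than in the other IgG libraries, and neither group overlapped the other. Col1a1 fell by 2.17 ± 0.64 (adjusted p = 0.0392) and Col3a1 by 2.46 ± 0.58 (adjusted p = 0.0176). Col1a1 was not called without IgG replicate 1 (adjusted p = 0.0506), anti-IL-9 replicate 1 (0.126) or anti-IL-9 replicate 2 (0.154), nor Col3a1 without anti-IL-9 replicate 2 (0.087). Without IgG replicate 2 the collagen median was −0.82, and 10 members were lower. Without anti-IL-9 replicate 1 the number lower was 4, and without replicate 2 it was 1, while it was 11 with upper-quartile scaling and 15 both in the joint fit and with no filter on low counts.

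Col14a1, a collagen that binds fibrils, was the member with the smallest p, at 176, 312 and 179 CPM and at 74.3 and 50.7 CPM (−1.83 ± 0.32, adjusted p = 0.00503). The members that rose were Col5a3, at 134, 104 and 77.9 CPM and at 239 and 172 CPM (0.97 ± 0.25, adjusted p = 0.0239; 0.056 without IgG replicate 2, 0.0673 without IgG replicate 3 and 0.142 leaving out anti-IL-9 replicate 1), and Col18a1, a basement membrane collagen (0.68 ± 0.18, adjusted p = 0.028). Col18a1 was not called without IgG replicate 3 (0.0509), anti-IL-9 replicate 1 (0.112) or anti-IL-9 replicate 2 (0.0755), or in the joint fit (0.0521). Among matrix glycoproteins, proteoglycans and elastic fibre genes 17 of 34 fell (median −1.29), against 11.0% of all genes tested. Fbln1, fibulin 1, was at 96.0, 108 and 129.8 CPM and at 26.8 and 22.3 CPM (−2.18 ± 0.18, adjusted p = 0.000226). Fmod, fibromodulin, which guides collagen fibril assembly, was at 46.3, 72.1 and 54.7 CPM and at 13.9 and 10.6 CPM (−2.23 ± 0.23, adjusted p = 0.000534). Dcn, decorin, was at 855, 627 and 715 CPM and at 291 and 238 CPM (−1.47 ± 0.20, adjusted p = 0.00195). In these 3 genes IgG replicate 2 did not stand apart. Among crosslinking and remodelling genes 11 of 30 fell (median −1.06), including Serpinh1, the collagen chaperone, from 362 to 622 CPM to 199.9 and 210.3 CPM (−1.15 ± 0.26, adjusted p = 0.016; 0.0782 without anti-IL-9 replicate 1 and 0.0575 without replicate 2). Without anti-IL-9 replicates 1 and 2 the counts were 10 and 8 for the glycoproteins and 5 and 5 for crosslinking, against 25 and 16 in the joint fit and 28 and 20 with no filter on low counts.

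**Figure D4:**
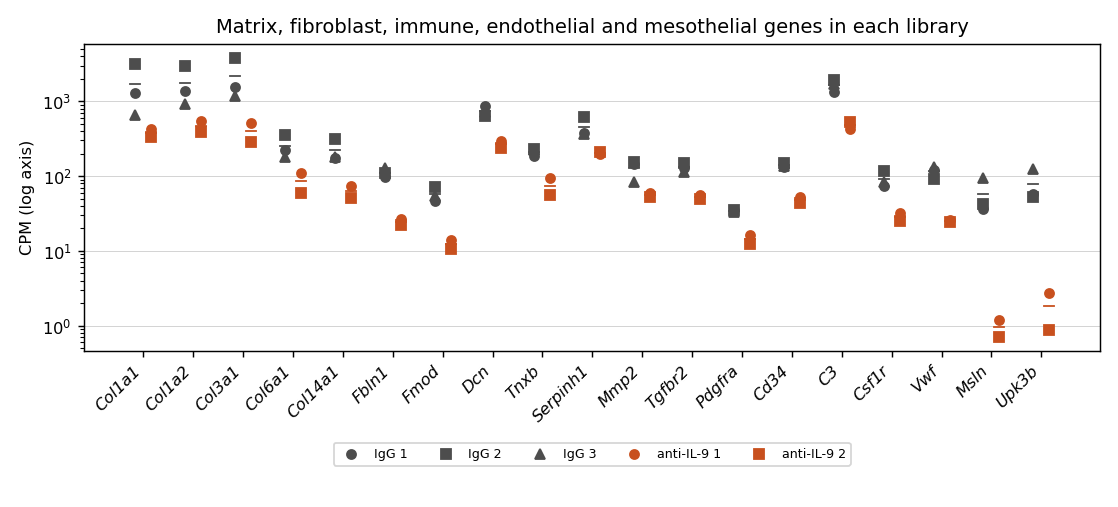
Level of 19 matrix, fibroblast, complement, macrophage, endothelial and mesothelial genes in CPM on a log axis, with one symbol per library and a bar at each group's mean (IgG grey, anti-IL-9 orange). IgG replicate 2 is the highest library for Col1a1, Col1a2 and Col3a1, and both anti-IL-9 libraries lie below all IgG libraries for every gene drawn, by most for Msln and Upk3b.

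General fibroblast markers fell together with the matrix genes. Of 16 tested members 14 fell, against 11.0% of all genes tested, with a median of −1.48. Cd34, a surface protein of adventitial fibroblasts and of endothelium, was at 131, 150.3 and 138 CPM with IgG and at 53.1 and 43.6 CPM with IL-9 antibody (−1.53 ± 0.15, adjusted p = 0.000362). Scara5, a scavenger receptor of adventitial fibroblasts, was at 87.6, 74.7 and 75.2 CPM and at 27.4 and 20.6 CPM (−1.72 ± 0.17, adjusted p = 0.000386). Pdgfra, the platelet-derived growth factor receptor of fibroblasts, was at 35.6, 34.7 and 33.3 CPM and at 16.1 and 12.3 CPM (−1.28 ± 0.15, adjusted p = 0.000943). The IgG libraries agreed closely on these markers, replicate 2 included. Set against the fibroblast list within each library, the mean log2 levels of the matrix lists were on average not lower with anti-IL-9. The mean log2 level of 20 collagens minus that of 16 fibroblast genes was −0.05, 0.75 and −0.30 with IgG and 0.56 and 0.48 with anti-IL-9, a difference of means of 0.39. The same difference was 0.39 for 31 glycoproteins over the 13 fibroblast genes not among them and 0.63 for 30 crosslinking genes. For the glycoproteins IgG replicate 2 (−0.08) lay above both anti-IL-9 libraries (−0.11 and −0.23), as it did for the collagens. By mean summed CPM the collagens with anti-IL-9 were at 0.31 of their IgG level, against 0.42 for the fibroblast genes. That share was 0.44 for the glycoproteins and 0.56 for the crosslinking genes.

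TGF-beta pathway genes fell in 7 of 25 tested members and rose in 1, against 11.0% and 21.0% of all genes tested, with a median of −0.04. Tgfbr2, the type 2 receptor, fell from 115 to 151 CPM to 55.4 and 49.6 CPM (−1.33 ± 0.16, adjusted p = 0.000963). Eng, a co-receptor of endothelium, fell from 199 to 229 CPM to 80.5 and 119 CPM (−1.08 ± 0.19, adjusted p = 0.00618). Bmpr2, a receptor of bone morphogenetic proteins, rose from 60.8 to 68.6 CPM to 99.9 and 87.6 CPM (0.54 ± 0.12, adjusted p = 0.0149), which was not called without IgG replicate 3 (0.0693) or anti-IL-9 replicate 1 (0.0769).

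Mesothelial genes, which mark the serous lining over the organs of the chest and abdomen, had the lowest median of all lists described. All 10 tested members fell, against 11.0% of all genes tested, with a median of −4.12 (17.35-fold lower). Msln, mesothelin, was at 35.8, 42.3 and 93.7 CPM with IgG and at 1.20 and 0.710 CPM with IL-9 antibody (−5.86 ± 0.59, adjusted p = 0.00046). Upk3b, a uroplakin, was at 57.1, 52.5 and 124 CPM and at 2.76 and 0.874 CPM (−5.35 ± 0.61, adjusted p = 0.000794). Bnc1, basonuclin, had 280 counts with IgG and 5 with anti-IL-9, a ratio of 43.0 (95% interval 18.2 to 133). IgG replicate 3 was the highest library for each, and for 22 of the 26 genes that fell at least 8-fold, against 33.5% of all genes tested. Lrrn4 (−4.62), Krt7 (−3.84), Upk1b (−5.26) and Pkhd1l1 (−3.62) were among the 10 largest decreases too, each with an adjusted p under 0.05 and groups that did not overlap. Without anti-IL-9 replicate 1 the called members were 8.

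Endothelial genes fell in 13 of 15 tested members, with a median of −0.90, against 11.0% of all genes tested. Vwf, von Willebrand factor, was at 121, 92.5 and 134 CPM with IgG and at 25.6 and 24.6 CPM with IL-9 antibody (−2.20 ± 0.19, adjusted p = 0.00025). Cdh5, the adhesion protein of endothelial junctions, was at 226, 188 and 164 CPM and at 80.2 and 87.3 CPM (−1.20 ± 0.17, adjusted p = 0.00215). All 15 members lay below the IgG range in both anti-IL-9 libraries, where 59.9% of all genes tested had groups that did not overlap, in either direction. Lymphatic markers fell in 4 of 7 tested members, such as Flt4, the receptor of lymphatic growth factors (−1.10 ± 0.13, adjusted p = 0.000833). Prox1, the identity factor of lymphatic endothelium, rose from 3.82 to 4.24 CPM to 12.7 and 6.88 CPM (1.29 ± 0.28, adjusted p = 0.0139), a call lost without IgG replicate 3 (0.0545) or anti-IL-9 replicate 1 (0.75, adjusted p = 0.0856). Kcnj8, the potassium channel of pericytes, fell from 29.9 to 32.9 CPM to 16.4 and 14.9 CPM (−1.01 ± 0.12, adjusted p = 0.00106).

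Genes of macrophages, complement, cytokines and mast cells mostly had lower levels as well. Over all genes tested 11.0% were called lower and 21.0% higher. Dendritic cell and MHC class II genes moved less: of 12 tested, 1 fell and 4 were above 0 (median −0.71). Of 16 tested macrophage genes 11 fell (median −1.59), and Cx3cr1, a chemokine receptor, rose (0.83 ± 0.25, adjusted p = 0.0406), a call that was lost without IgG replicate 1 (0.0942), IgG replicate 3 (0.112), anti-IL-9 replicate 1 (0.201) or anti-IL-9 replicate 2 (0.0517). Csf1r, the growth factor receptor on which macrophages depend, was at 73.1, 116 and 82.3 CPM with IgG and at 32.4 and 24.7 CPM with IL-9 antibody (−1.66 ± 0.24, adjusted p = 0.00219). Complement genes fell in 16 of 19 tested members (median −1.51). C3, the central component, was at 1322, 1920.1 and 1691 CPM and at 427 and 532 CPM (−1.78 ± 0.24, adjusted p = 0.00173), and Serping1, the C1 inhibitor, at 256 to 296 CPM and at 96.0 and 74.9 CPM (−1.70 ± 0.17, adjusted p = 0.000415). Cytokine and chemokine genes fell in 6 of 19 tested members, for example Ccl9 from 43.0 to 86.8 CPM to 15.2 and 12.6 CPM (−2.12 ± 0.32, adjusted p = 0.00282), a count of 4 without anti-IL-9 replicate 1, 3 without replicate 2, 9 in DESeq2 and 12 with no filter on low counts. Mast cells, which express the IL-9 receptor in many settings, were represented by 8 tested genes, of which 5 fell. Mcpt4, a mast cell chymase, was at 8.96, 11.0 and 12.5 CPM and at 3.60 and 3.71 CPM (−1.56 ± 0.22, adjusted p = 0.00196), and Tpsb2, a tryptase, at 8.64, 9.64 and 16.2 CPM and at 2.40 and 2.95 CPM (−2.10 ± 0.34, adjusted p = 0.00357). Gata2 rose in the same list, from 24.2 to 35.8 CPM to 121 and 127 CPM (2.12 ± 0.18, adjusted p = 0.000259); it is a factor of mast cells and also of sympathetic neurons. Without anti-IL-9 replicate 1 the mast cell genes that fell were 3.

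White fat and lipid synthesis genes fell by smaller amounts. For the counts given next, 11.0% of all genes tested were called lower and 21.0% higher. White fat markers fell in 12 of 18 tested members (median −0.87) and lipid synthesis genes in 11 of 16 (median −0.81). Adipoq, adiponectin, was at 879, 693 and 843 CPM with IgG and at 376 and 449 CPM with IL-9 antibody (−0.97 ± 0.19, adjusted p = 0.00859). Mlxipl, the factor that turns on lipid synthesis in response to glucose, was at 346 to 361 CPM and at 178 and 184 CPM (−0.97 ± 0.13, adjusted p = 0.00184). The counts were 7 and 5 without IgG replicate 1, 6 and 4 without IgG replicate 3 and 7 and 5 leaving out anti-IL-9 replicate 1. Brown fat genes fell in 2 of 14 tested members (median −0.52), a share near that of all genes. Fatty acid oxidation genes fell in 3 of 19 and rose in 1 (median −0.60). Without anti-IL-9 replicate 1 these medians were −0.13 and −0.27. Nuclear genes of oxidative phosphorylation were all below 0 on the log2 scale (34 of 34, median −0.53). The edgeR test called none of them, with 9 at an unadjusted p under 0.05. The number called lower was 0 in limma-voom, 10 in DESeq2, 5 with upper-quartile scaling, 11 in the joint fit and 19 with no filter on low counts. They were low in anti-IL-9 replicate 1, at a sum of 13676 CPM against 21861 CPM in replicate 2 and 23068 to 30859.5 CPM with IgG, and 23 were called lower without replicate 2. Clock genes fell in 5 of 18 tested members and rose in 1, with the number that fell ranging from 2 in the joint fit to 11 with no filter on low counts (3 without IgG replicate 3, 8 leaving out anti-IL-9 replicate 2, 8 in limma-voom, 9 with upper-quartile scaling and 10 in DESeq2). Dbp, a clock output factor, was at 109 to 113 CPM and at 49.0 and 57.9 CPM (−1.06 ± 0.13, adjusted p = 0.000966), a call that was not kept in the joint fit (adjusted p = 0.31).

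The values were set beside those of TKO against Cre aorta without antibody, a comparison that shares no library with this one and whose edgeR test called 18 genes. Of 14890 genes tested in both, 43.1% had opposite signs, and the correlation across genes was 0.218 (Pearson) and 0.182 (Spearman), as a description of genes that are not independent. Of the 3048 genes that rose with anti-IL-9 and were tested in both, 34.7% were below 0 in TKO minus Cre, and of the 1759 that fell, 43.0% were above 0. The sympathetic list had a median of 0.46 in TKO minus Cre (17 of 19 above 0) beside 3.50 here. The collagens had a median of 0.04 (11 of 20 above 0) beside −1.51, the fibroblast genes 0.25 beside −1.48, the mesothelial genes −0.41 beside −4.12 and the smooth muscle genes −0.65 beside 0.96. Skeletal muscle genes were higher in both, with medians of 3.21 (17 of 17 above 0) and 2.72. None of the members of these 6 lists was among the 18 genes called there. Of those 18 genes, 15 were tested here and 4 were called, a share not above the 32.1% of all genes tested that were called here. Pdpr, a regulator of pyruvate dehydrogenase phosphatase, was at 1.73 in TKO minus Cre and fell by 0.69 ± 0.20 with anti-IL-9 (adjusted p = 0.0388), Wdfy1, an endosomal protein, was at −1.32 and 0.74 ± 0.23 (adjusted p = 0.0435), and Prune2 was at 0.90 and 2.97. Each leave-one-out fit lost the call of Pdpr (adjusted p 0.0543 to 0.143), and that of Wdfy1 was kept without anti-IL-9 replicate 1 and lost without each of the others (0.0591 to 0.227). Wdfy1 was also not called with RLE scaling (0.055), upper-quartile scaling (0.0707), limma-voom (0.0594) or mitochondrially encoded genes left out (0.0516). The remaining gene, Gm9855, a predicted gene, was at 0.232 to 2.17 CPM with IgG and at 0.12 and 0.109 CPM with anti-IL-9.

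**Figure D5:**
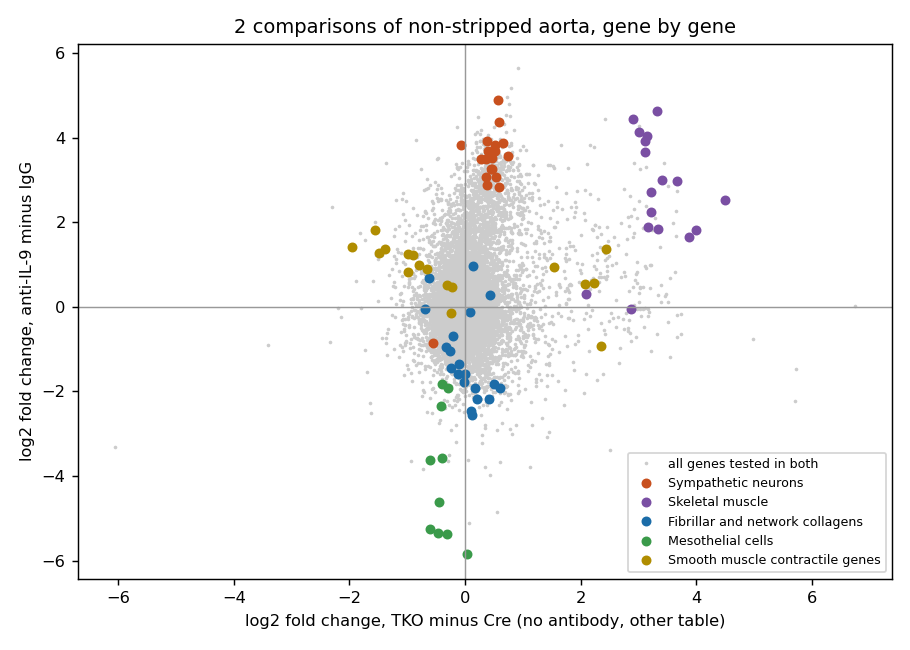
Log2 fold change with anti-IL-9 (vertical) against that of TKO minus Cre in the libraries without antibody (horizontal), 1 point per gene tested in both and 5 lists coloured. Sympathetic genes lie high and slightly right of 0, skeletal muscle genes high and far right, and collagen and mesothelial genes low and near 0 on the horizontal axis.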

How the data were processed

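RNA sequencing reads of non-stripped mouse aorta were counted per gene by the authors, and the deposited values used here are raw counts. Per the submitters' processing notes, Trimmomatic 0.36, STAR 2.5.2b, featureCounts of Subread 1.5.2 and the build GRCm38 were named; their settings, including strand, are not given in the sources used here. Of 42375 symbols 38896 matched the annotation, and 27 symbols had been turned into dates. A row with no name, left out, held at most 0.000682% of the counts.

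The 5 libraries were grouped by their treatment labels, and their replicate numbers follow accession order and pair nothing. Genes passed filterByExpr (minimum count 10), and TMM scaling and the quasi-likelihood test of edgeR 4.0.16 (R 4.3.3) were applied to the antibody libraries only, with Benjamini-Hochberg adjustment over all genes tested and a threshold of 0.05. CPM are counts divided by the TMM-scaled total and multiplied by 1e+06, list means use log2(CPM + 0.5), and totals of 17179257 to 22745977 set the precision. Intervals are 95% and a count of 0 allows 3 counts, for counting error only. The script was tested on simulated counts with 100 genes changed 2-fold and 100 changed 4-fold. It called 44% and 91% of them, and made 18 false calls. Far fewer genes were changed there than the 5277 called in the data.

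Alternatives were DESeq2 1.42.0, limma-voom (limma 3.58.1), other scalings and filters, a joint fit and each library left out. Members and lists were chosen with earlier results of these data known. Named were Klf10, Il9 and Il9r, the 10 largest changes and 5 smallest p-values per direction among called genes with a mean of 1 CPM or more and groups that do not overlap, and up to 6 called members per list. The Hox lists, Th, Dbh, Col1a1, Col3a1, Star, Akr1b7, Hoxc9, Il2rg, Trbc2, Col18a1, Serpinh1, Cx3cr1, Pdpr, Wdfy1 and the list members given as not passing were chosen after their values were seen. The labels do not say whether the libraries come from separate animals, so p-values measure only the spread between these samples, which may be technical. Stripped aorta, fibroblasts and single cells were not used here.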

Additional observations from a re-analysis of the deposited data

How the results depend on the processing

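The number of genes that fell (1815) became 2780 with upper-quartile scaling, 2892 with no filter on low counts and 2928 in a joint fit with the libraries without antibody, and 1048 to 1733 when 1 library was left out (1115 without IgG replicate 3, 1048 without anti-IL-9 replicate 1). Higher genes were 65.6% of all calls, 51.8% with upper-quartile scaling, which moved the median of all genes to −0.13, and 54.4% in the joint fit. DESeq2 called 5561 genes, 4962 of them among the 5277 of edgeR. Of 251 called genes examined singly, 234 to 250 kept their call under the 9 changes of method and 180 to 222 when a library was left out, and 3 changed direction without anti-IL-9 replicate 1. When each library was left out in turn, Il9r ranged from −3.10 to 1.00, Star from −0.82 to 5.06, Akr1b7 from −1.22 to 7.24, Trbc2 from −0.00011 to 4.10, Ccl5 from −1.58 to 2.13 and Nkg7 from −0.62 to 1.61, each lowest without anti-IL-9 replicate 1. Il2rg ranged from −1.18 to 0.064 and Hbb-bs from −0.98 to 0.059 (0.021 without anti-IL-9 replicate 1). The medians ranged from −2.45 to 7.35 for adrenal, from −0.29 to 2.65 for T cell and from −0.73 to 0.71 for cholinergic and sensory genes (−0.09 without IgG replicate 3). In limma-voom Il9r was at −0.67 and the cholinergic and sensory median at −0.62, which was −0.61 with at least 1 CPM in 2 libraries. The cause was not tested. The alternatives for the Hox lists and for genes named after their values were seen were chosen after seeing the data. No paired analysis was possible because the labels give each library a number of its own that no library of the other group shares, and the replicate numbers used here only name the libraries in accession order.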
